A study of Mus musculus with 4 samples.

Results

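Brain endothelial cells of wild-type mouse embryos were compared between embryonic day 18 (E18) and embryonic day 15 (E15), gene by gene. The comparison took the 12088 genes that both deposited tables list, off chromosomes X and Y, with at least 1 CPM (the usual read count scaled to the library total) in a wild-type library and at least 50 reads over both. Together the tables list 20194 genes: 16181 stand in both, 548 of these lie on X or Y, and 3545 others fell below the filter. The members were chosen by detection, not by how they differed between stages. At the edge of the filter, the 346 members with 50 to 59 reads had a median log2 ratio of -0.17 and the 413 genes just outside it, with 40 to 49 reads, one of -0.14.

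The series holds RNA sequencing of brain endothelial cells from C57BL/6 embryos in 4 groups of 1 library each: wild type at E15, wild type at E18, and UCP2f/f;Tie2-cre knockout at both stages. The knockout embryos carry a floxed Ucp2 gene and Cre recombinase driven by the Tie2 promoter, which is active in endothelial cells and in most blood cells. The wild-type libraries held 15542930 reads in listed genes at E15 and 19075407 at E18, and the knockout libraries 16328300 and 21992660. The series' design text speaks of triplicates, but 1 library per group was used here. The sources used here do not state how the cells were isolated or whether embryos were pooled. With 1 library on each side, a wild-type ratio has no replicate check and no p-value, and its 95% interval covers counting error only. Ratios are E18 over E15, scaled to the library totals, on a log2 scale of CPM plus 1, on which differences of weakly expressed genes come out too small. Past 2-fold on that scale a gene is called higher or lower. "Rose" and "fell" are kept for genes that passed the one test the design allows, edgeR's additive test of stage over all 4 libraries with genotype as a second term (Benjamini-Hochberg adjusted p under 0.05). Its p-values set a gene's stage ratio against a spread. That spread joins the gene's own difference between genotypes (1 residual degree of freedom) with a value pooled over all genes (6.29 prior degrees of freedom). The spread between embryos is not measured.

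Brain vessels grow by sprouting from a plexus around the neural tube. Between mid-gestation and birth their endothelium loses its pores and gains the transporters and tight junctions of the blood-brain barrier. Wnt signals from neural cells act through beta-catenin in endothelial cells and are needed for both the sprouting and the barrier. Microglia, the macrophages of the brain, come from the yolk sac and lie close to growing vessels.

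At E18 the wild-type library had 374 genes called higher (3.09% of members) and 918 called lower (7.59%), so that 71.1% of calls were lower. With TMM scaling, which moved the median of all genes from -0.11 to -0.00, the calls were 483 higher and 735 lower (60.3% lower). The ratios had an SD of 0.63 across genes. Scaled to library totals, 39.1% of members lay above 0, the background for counts of list members above or below 0. The shares of 3.09% and 7.59% are the background for the calls of every list, also where they are not repeated. Among the 2287 members with at least 100 CPM in a library the calls were nearly even, 42 higher and 39 lower. A 4-fold difference was passed by 37 genes upward and 122 downward, and an 8-fold difference by 3 and 24. In the additive test 136 of 12963 genes rose (1.05%) and 74 fell (0.571%). Of these, 75 risen genes were called higher and 70 fallen genes called lower in the wild-type pair. The count of risen genes ranged from 57 without a filter to 463 with a filter at 5 CPM, and that of fallen genes from 33 to 555. As a measure of how far 2 libraries of the same stage differed, 6.74% of genes were past 2-fold between genotypes at E15 and 6.67% at E18, and these pairs share libraries with the wild-type comparison.

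**Figure D1:**
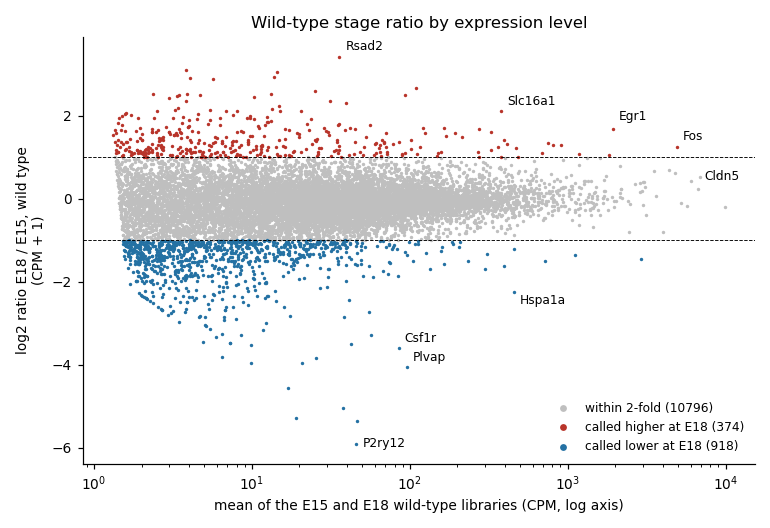
Each point is 1 of 12088 genes, with the mean CPM of both wild-type libraries on a log axis and the log2 ratio of E18 over E15 on the vertical axis. The dashed lines mark the 2-fold threshold. The 374 higher and 918 lower calls are spread most widely among weakly expressed genes, and P2ry12 (-5.92) and Rsad2 (3.43) hold the extremes.

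Ucp2, the targeted gene, encodes a transporter in the inner membrane of mitochondria. Ucp2 had 4285 reads at E15 and 6696 at E18 in the wild-type libraries (276 and 351 CPM), and 2666 and 3296 in the knockout libraries (163 and 150 CPM). It was 1.27-fold higher at E18 in wild type (interval 1.23 to 1.32, log2 0.35), within the 2-fold threshold. The knockout libraries were the lower at both stages and still held reads of the gene. In the additive test Ucp2 did not pass (edgeR, adjusted p = 0.547).

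The wild-type libraries also differed in transcripts of the sex chromosomes. Xist, the X-inactivation transcript, had 2549 reads at E15 and 0 at E18. Ddx3y, on the Y chromosome, had 5826 reads at E18 and is not listed at E15. Stage therefore cannot be told apart from the embryos' sex in this pair, and leaving out X and Y removes only the linked genes themselves. In the knockout pair Xist had 2109 and 547 reads, and Ddx3y had 0 reads at E18.

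The labelled cell type was checked against its markers. All 22 pan-endothelial markers passed the filter, none was called in either direction, and their median log2 ratio was 0.08, beside -0.11 over all members. Cldn5, a claudin of the endothelial tight junction, had 95601 and 138016 reads (log2 0.23). Eng, an accessory receptor for TGF-beta and BMP, had 40486 and 65775 reads (log2 0.40). Cdh5, the endothelial cadherin, was the only one of the 22 to rise (3018 and 5959 reads in wild type, 3136 and 8506 in knockout, log2 0.68 and 1.01, edgeR adjusted p = 0.0304). Summed over the list, the markers stood at 24810 CPM at E15 and 27630 CPM at E18 in wild type, so that both libraries were rich in endothelial transcripts to a like degree.

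Microglial and macrophage genes were the list that lay lowest at E18. Of 23 listed genes 20 passed the filter, 14 were called lower (background 7.59%) and 1 higher, with a median log2 ratio of -2.43. P2ry12, the purine receptor that marks resident microglia, had 1417 reads at E15 and 10 at E18 in wild type, a 174-fold difference (interval 94.3 to 363), and 408 and 57 reads in knockout. Both E18 libraries were thus below both E15 libraries. Cx3cr1, the fractalkine receptor, had 1416 and 24 reads in wild type and 377 and 46 in knockout. Csf1r, the receptor that microglia need to survive, had 2459 and 233 reads, then 1049 and 212. Tmem119 had 587 reads at E15 and 0 at E18 in wild type, at least 240-fold lower against a floor of 3 reads, and 400 and 108 in knockout.

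P2ry12 (adjusted p = 0.0448), Cx3cr1 (adjusted p = 0.0218), Csf1r (adjusted p = 0.012) and all 3 chains of complement C1q were the 6 list members that fell in edgeR's test, of 20 tested. Leaving out clone names, the 15 lowest ratios of all members also held 8 genes outside the list. These were the chemokine gene Ccl3 (754 and 47 reads), the regulator of G-protein signals Rgs1 (616 and 31), the lysolipid acyltransferase gene Lpcat2 (302 and 6), the prostaglandin D synthase gene Hpgds (295 and 14), the purine receptor gene P2ry13 (221 and 7), the actin regulator Nckap1l of blood cells (220 and 7), and Plvap and Ttr, which are described with other genes further on. The 1 gene called higher was Lyve1, of border macrophages and lymph vessels (15 and 60 reads). Laptm5, a lysosomal protein of blood cells, was within 2-fold (3587 and 3024 reads, log2 -0.54), and Lyz2, lysozyme, had 545 and 861 reads in wild type and 250 and 1863 in knockout; Lyve1 and Lyz2 are named after their values were seen. The summed level of the list was 1024 CPM at E15 and 262.2 at E18 in wild type, and 590.2 and 379.9 in knockout. With a pseudocount of 5 CPM the median was -1.40. In such bulk libraries fewer cells of a type and less RNA per cell cannot be told apart.

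**Figure D2:**
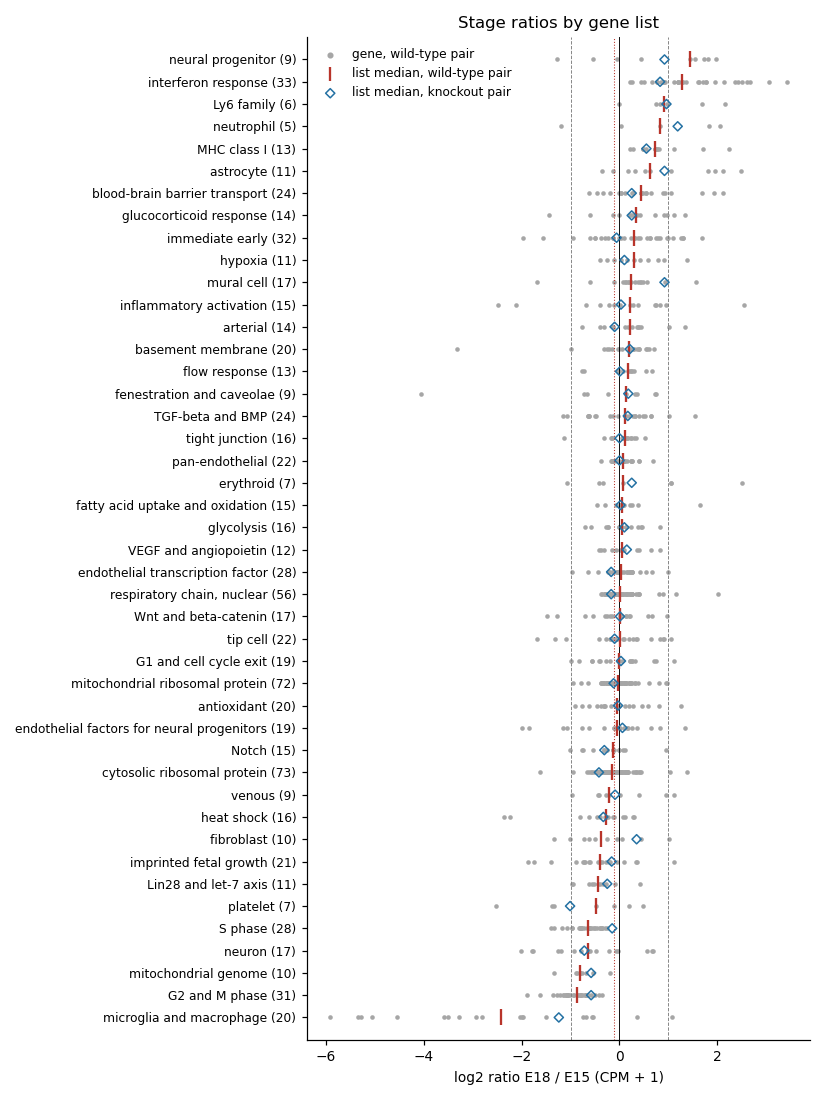
Each grey point is a gene's log2 ratio of E18 over E15 in the wild-type pair, by gene list, with the number of genes in brackets. Red bars are list medians in the wild-type pair, blue diamonds the medians of the same genes in the knockout pair, the dotted red line the median of all members and the dashed lines 2-fold. The medians of interferon and Ly6 genes lie right of 0 and those of cell division, mitochondrial genome and microglial genes left of it in both pairs.

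Markers of other cells differed in both directions. Of 17 neuronal genes 5 were called lower (background 7.59%) and 0 higher, with a median of -0.65. Among the 5 were the splicing factor gene Rbfox3 (309 and 79 reads) and Neurod6, a transcription factor of cortical neurons (418 and 137). Astrocyte genes had 5 of 11 called higher (background 3.09%) and 0 lower, with a median of 0.62. The most abundant were Sparcl1, a matrix protein that endothelium also makes (88140 and 155352 reads, log2 0.52), and the gap junction gene Gja1 (7478 and 8357, log2 -0.13), and the list summed to 7010 and 9682 CPM in wild type. Aldh1l1, a folate enzyme used to mark astrocytes, had 30 and 223 reads in wild type and 33 and 132 in knockout, and Acsbg1, an acyl-CoA synthetase gene, 5 and 122, then 0 and 141. Of 9 neural progenitor genes 5 were called higher (background 3.09%) and 1 lower (median 1.44, but 0.33 without the filter on low values). Nes, nestin, the most abundant, had 3919 and 4660 reads (log2 -0.05). Of the 9, 2 rose: Ptprz1, a receptor phosphatase of radial glia (69 and 390 reads in wild type, 36 and 216 in knockout, edgeR adjusted p = 0.0401), and Fabp7, named after its values were seen (129 and 463, then 78 and 396, adjusted p = 0.0408). Genes listed at 1 stage only were not compared. Astrocyte genes listed only at E18 were Gfap (68 reads in wild type), Aqp4 (42) and Agt (37), and only at E15 Slc1a2 (19). Oligodendrocyte genes listed only at E18 were Olig1 (351 reads in wild type), Olig2 (1) and Gpr17 (0). The neural progenitor genes Sox1 (9 reads in wild type) and Sox2 (2) were listed only at E15.

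Transcripts of blood cells were present as well. Hba-a1, an adult alpha globin, had 3309 and 10902 reads in wild type and 5395 and 10437 in knockout, and its reads are uncertain because of its near-identical copy Hba-a2. Of 7 platelet genes 3 were called lower (background 7.59%, list median -0.49), led by Gp5 (150 and 16 reads). Of 5 neutrophil genes 2 were called higher and 1 lower; Ngp, a granule protein, had 1 and 53 reads in wild type and 83 and 284 in knockout. Mmp9, a gelatinase made by neutrophils and other cells, had 9914 and 5302 reads in wild type but 5911 and 8057 in knockout. Pericyte and smooth muscle genes had a median of 0.23 in wild type and 0.92 in knockout, with 1 of 17 called higher in wild type. Rgs5, their most abundant marker, had 79709 and 131818 reads in wild type and 55530 and 192751 in knockout. Anpep, an aminopeptidase of pericytes, rose (147 and 575 reads in wild type, 96 and 761 in knockout, edgeR adjusted p = 0.0252). The fibroblast list had a median of -0.38, with Col3a1, a fibrillar collagen, at 3368 and 2482 reads. Mast cell (2 genes), oligodendrocyte (2), choroid plexus (3) and lymphoid (1) markers that passed the filter had 0 called higher and 3 called lower. The 3 were Hdc, histidine decarboxylase (263 and 39 reads), Mbp, myelin basic protein (59 and 9), and Ttr. The rest were within 2-fold: Kit of mast cells (2003 and 2534 reads, log2 0.04), Enpp2 of choroid plexus (2728 and 3174, log2 -0.08), Clic6 (log2 -0.86), Cnp (log2 -0.84) and Cd79b (log2 -0.10). The part of all these cells in the results below was not tested.

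Of 30 genes listed for blood-brain barrier transport, 24 passed the filter, 19 lay above 0, 4 were called higher (background 3.09%) and 0 lower, with a median of 0.44. Slc16a1 (ENSMUSG00000032902, chromosome 3, 104638668 to 104658462), the monocarboxylate transporter MCT1 that carries lactate and ketone bodies, had the highest ratio. Slc16a1 had 2204 reads at E15 and 11760 at E18 in wild type, and 2434 and 12096 in knockout. The genotypes lay close together within each stage and the stages did not overlap. The difference was 4.35-fold in wild type (interval 4.15 to 4.55), and Slc16a1 had the lowest p of all genes tested (edgeR, adjusted p = 0.0118). Slco1a4, an organic anion transporter, had 51 and 294 reads, then 74 and 633 in knockout (adjusted p = 0.0213).

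Car4, a carbonic anhydrase on the capillary surface, had 323 and 1315 reads in wild type and 573 and 2095 in knockout (edgeR, adjusted p = 0.0144). Slco1c1, which carries thyroid hormone, had 18437 and 47053 reads, then 25047 and 58069 (adjusted p = 0.0144). With the organic anion transporter gene Slc22a8 (9941 and 23209 reads in wild type) and the proteoglycan gene Spock2 (22075 and 39664) these made 6 of the 24 list genes that rose, where 1.05% of all genes did, and 0 fell. Of the 6, Car4 and Spock2 do not encode transporters. Car4, Slco1c1, Slc22a8 and Spock2 are named after their values were seen. The most abundant members lay near 0. Slc2a1, the glucose transporter GLUT1, had 163595 and 175040 reads (log2 -0.20), and Mfsd2a, the lysolipid transporter that restrains transcytosis, had 32819 and 41549 (log2 0.04).

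Plvap, which forms the diaphragms of endothelial pores and is lost as the barrier matures, had 2829 reads at E15 and 191 at E18 in wild type and 1714 and 814 in knockout. The wild-type difference was 18.2-fold (interval 15.7 to 21.2), and Plvap did not pass the additive test (edgeR, adjusted p = 0.0708). Cav1, the main caveolar coat protein, had 7399 and 15062 reads (log2 0.73). Tight junction genes stayed near the level of all genes, with 0 of 16 called higher, 1 lower and a median of 0.11. Ly6 genes, which encode small anchored surface proteins, had 5 of 6 members above 0 and 2 called higher. Ly6c1, a marker of brain endothelium, had 2002 and 7940 reads in wild type and 2655 and 8873 in knockout, and rose (3.23-fold, interval 3.08 to 3.40, edgeR adjusted p = 0.012). Ly6e had 4191 and 10187 reads, then 4557 and 12355, and rose as well (adjusted p = 0.0144). Ly6c1 has a close relative in Ly6c2, so its reads are uncertain.

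**Figure D3:**
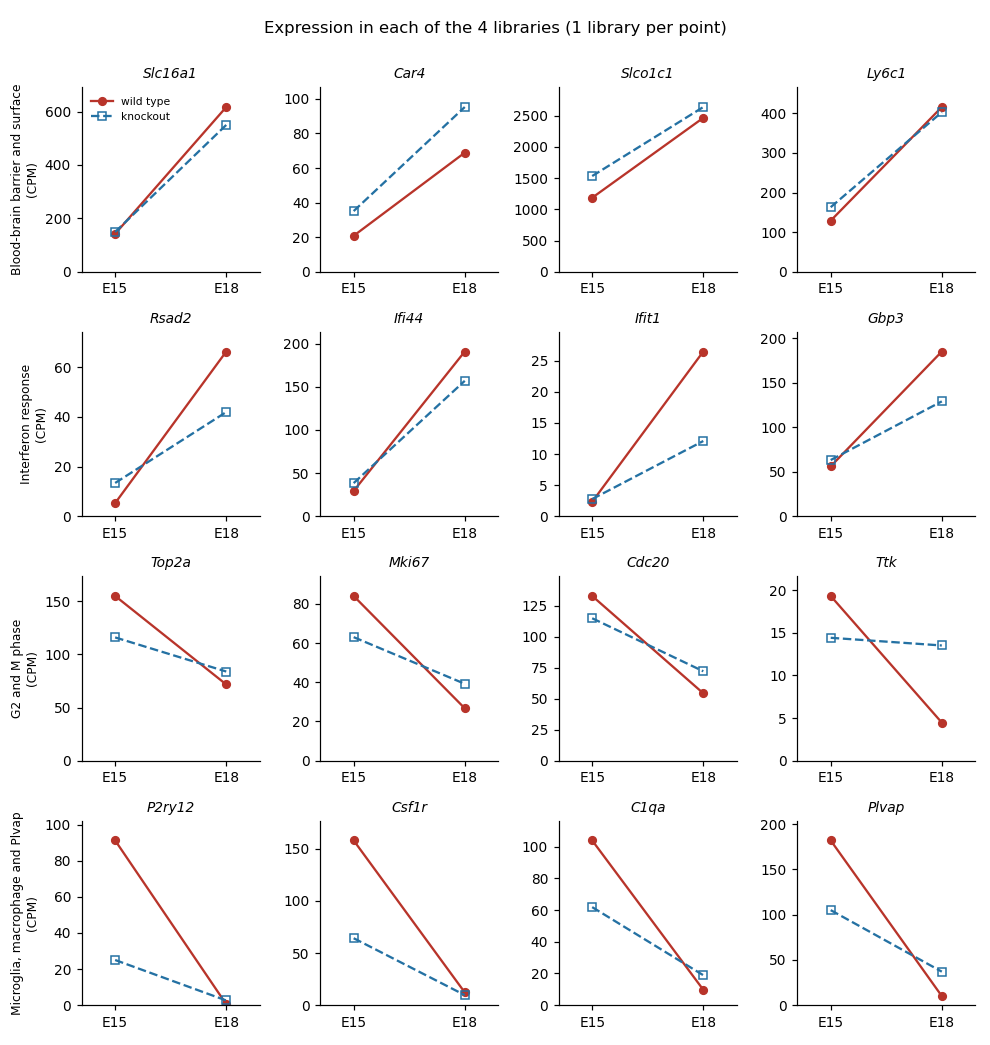
Expression in CPM of 16 genes in each of the 4 libraries, at E15 and E18, with wild type as filled red circles and knockout as open blue squares; every axis starts at 0 and each point is 1 library. Slc16a1, Ly6c1 and Ifi44 are higher at E18 in both genotypes, and the difference of Ttk is larger in wild type (log2 -1.90) than in knockout (log2 -0.08).

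Interferon response genes were higher at E18 throughout the list. All 33 members that passed the filter lay above 0, of 36 listed, and 22 were called higher (background 3.09%), with a median of 1.28. In the knockout pair 29 of the 33 lay above 0, 10 were called higher and 1 lower, with a median of 0.83. In the additive test 15 of the 33 rose, where 1.05% of all genes did, and 0 fell. Type I interferons act through a complex that contains IRF9 and binds a sequence named the interferon-stimulated response element (ISRE) before its target genes.

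The gene with the highest ratio of all members, apart from clone names, was Rsad2, which encodes the antiviral enzyme viperin. Rsad2 had 82 reads at E15 and 1267 at E18 in wild type, and 219 and 923 in knockout. It was 12.6-fold higher in wild type (interval 10.1 to 15.9) and rose (edgeR, adjusted p = 0.0421). Ifit1, which binds viral RNA, had 36 and 506 reads, then 45 and 266 (adjusted p = 0.0328). Ifi44 had 455 and 3649 reads, then 627 and 3451, with a 6.53-fold wild-type difference (interval 5.93 to 7.22, adjusted p = 0.012). Both E18 libraries were above both E15 libraries for each of these genes.

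Rtp4 (420 and 3028 reads in wild type), the guanylate-binding protein gene Gbp3 (870 and 3531) and the nuclear body gene Sp100 (99 and 836) rose too, with adjusted p of 0.0224, 0.025 and 0.0362 in edgeR's test. Irf9 itself had 1947 and 4506 reads in wild type and 1868 and 4239 in knockout (adjusted p = 0.032). Ddx58, the RNA sensor RIG-I, had 1448 and 3029 reads (log2 0.76, adjusted p = 0.055). Outside the list, Tnfsf10, the death ligand TRAIL, had 38 and 480 reads, then 10 and 253, and rose (adjusted p = 0.0144). Ddx60 (9 and 204 reads, then 30 and 81) and Ifi213 (0 and 145 reads, then 9 and 79, at least 39.4-fold higher in wild type) did not pass the additive test.

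The stretches before these genes are shown as a description. The list was made of interferon response genes and was chosen with earlier results of these data known, so its share of the element tests nothing. Windows of 300 bases, from 250 before to 50 after each gene's start, were taken from RefSeq on GRCm38.p6 and found for 25 of the 33 genes. The ISRE was searched as GAAANNGAAA on both strands. It was in 16 of the 30 windows of the interferon list (53.3%), in 7.74% of windows of all genes called higher, in 2.78% of windows of members within 2-fold and in 3.44% of all 32851 windows. Among the genes called higher outside the interferon list the share was 4.88%. It stood in 11 of 21 windows of list members called higher and in 5 of 9 windows of those not called. A match is a description of these letters, not evidence of binding. The 200 bases before the start follow, 5′ to 3′ on the gene's strand, with ISRE matches in capitals, for Rsad2 (chr12:26456453-26456652, minus strand), Ifit1 (chr19:34640689-34640888, plus strand), Gbp3 (chr3:142559844-142560043, plus strand) and Isg15 (chr4:156200819-156201018, minus strand). Isg15, shown for its overlapping matches after its values were seen, had 11 and 81 reads in wild type and 14 and 52 in knockout.
Rsad2: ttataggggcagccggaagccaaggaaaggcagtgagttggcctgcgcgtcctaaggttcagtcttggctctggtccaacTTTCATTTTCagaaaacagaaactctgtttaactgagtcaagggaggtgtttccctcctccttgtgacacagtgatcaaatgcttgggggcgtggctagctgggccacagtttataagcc
Ifit1: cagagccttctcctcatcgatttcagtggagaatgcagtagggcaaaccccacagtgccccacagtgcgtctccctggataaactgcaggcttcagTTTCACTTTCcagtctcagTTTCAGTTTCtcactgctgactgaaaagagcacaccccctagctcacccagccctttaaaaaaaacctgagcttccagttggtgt
Gbp3: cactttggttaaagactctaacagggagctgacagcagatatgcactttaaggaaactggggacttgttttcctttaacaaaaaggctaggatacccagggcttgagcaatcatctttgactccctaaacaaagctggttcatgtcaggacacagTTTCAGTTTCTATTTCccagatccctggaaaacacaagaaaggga
Isg15: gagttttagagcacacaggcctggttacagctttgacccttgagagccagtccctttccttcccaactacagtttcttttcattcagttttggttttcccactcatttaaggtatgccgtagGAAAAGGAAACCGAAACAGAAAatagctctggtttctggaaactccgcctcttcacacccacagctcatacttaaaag
Rsad2 holds 1 match in this stretch, 120 bases before its start, and Ifit1 and Gbp3 hold 2 each. Another RefSeq window of Gbp3 (chr3:142560106-142560405), not shown, holds 0 matches. The 3 matches of Isg15 lie within 78 bases of its start.

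Genes of MHC class I antigen presentation, many of them interferon targets, also lay above 0 in 13 of 13 members, with 3 called higher, 0 lower and a median of 0.73, and in 9 of 13 in knockout (median 0.55). Tap1, a subunit of the peptide transporter, had 70 and 476 reads in wild type and 131 and 567 in knockout (edgeR, adjusted p = 0.0308). H2-T23, a non-classical class I chain, had 296 and 1225, then 301 and 1175 (adjusted p = 0.0168). With Tapbp, the chaperone tapasin (2795 and 5662 reads in wild type, adjusted p = 0.0488), 3 of 13 rose and 0 fell. B2m, the light chain, had 4281 and 8981 reads (log2 0.77, adjusted p = 0.109). Class I genes are near-identical copies of one another, so reads of single H2 genes are uncertain.

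Genes of cell division lay below 0 in every member of the list. In wild type each of the 31 G2 and M phase genes was lower at E18, 13 of them past 2-fold (background 7.59%), with a median of -0.86. In the knockout pair 30 of 31 lay below 0, 3 were called lower, and the median was -0.58. In the additive test 0 of the 31 passed in edgeR; 18 had an unadjusted p under 0.05, all of them lower, and DESeq2 called 5 lower. All 28 S phase genes lay below 0 in wild type as well, with 4 called lower and a median of -0.65. In edgeR's additive test 0 of 28 passed, with 3 at an unadjusted p under 0.05, all lower, and 0 in DESeq2. In knockout 21 of 28 lay below 0 and the median was -0.15, close to that of all genes (-0.10). The difference between the genotypes' stage ratios could not be tested.

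Mki67, the proliferation antigen Ki-67, had 1306 reads at E15 and 509 at E18 in wild type and 1028 and 862 in knockout. The wild-type difference was 3.15-fold (interval 2.84 to 3.50), and the knockout libraries lay between the wild-type ones. Top2a, the topoisomerase of dividing cells, had 2415 and 1368 reads, then 1886 and 1845. Ttk, a kinase of the spindle checkpoint, had 300 and 85 reads in wild type but 235 and 298 in knockout. Tpx2, a spindle assembly factor, had 2084 and 1225, then 1907 and 1675. In the S phase list Rrm2, the regulated subunit of ribonucleotide reductase, had 384 and 175 reads, then 392 and 370. Pole, the leading-strand polymerase, had 192 and 77, then 93 and 132. The most abundant, the replicative helicase subunit Mcm6, had 6471 and 6689 reads (log2 -0.25).

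Many genes of the G2 and M phases share a pair of promoter elements, the cell cycle genes homology region (CHR), to which the DREAM complex and B-MYB with FOXM1 are recruited, and the CCAAT box bound by NF-Y. CHR was searched as TTTGAA and the box as CCAAT, both on both strands. Both stood together in 20 of the 28 windows of the G2 and M list (71.4%), in 2 of 26 windows of the S phase list (7.69%), in 4.56% of windows of all members and in 6.95% of all windows. Among all genes called lower the share was 7.63%, and among members within 2-fold 4.37%. The list was made of genes of these phases and was chosen with earlier results of these data known. Its share of the pair therefore tests nothing, and a match is not evidence of binding. The 200 bases before the start of the following genes are shown as examples, 5′ to 3′ on the gene's strand, from RefSeq on GRCm38.p6, with matches of either motif in capitals: Top2a (chr11:99024190-99024389, minus strand), Mki67 (chr7:135716380-135716579, minus strand) and Cdc20 (chr4:118437344-118437543, minus strand). Cdc20, which activates the anaphase-promoting complex, is shown after its values were seen; it had 2067 and 1037 reads in wild type and 1871 and 1588 in knockout.
Top2a: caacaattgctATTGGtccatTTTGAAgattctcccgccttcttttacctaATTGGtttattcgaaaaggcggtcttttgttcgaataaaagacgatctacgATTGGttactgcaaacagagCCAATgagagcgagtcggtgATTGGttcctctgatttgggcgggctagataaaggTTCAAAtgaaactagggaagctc
Mki67: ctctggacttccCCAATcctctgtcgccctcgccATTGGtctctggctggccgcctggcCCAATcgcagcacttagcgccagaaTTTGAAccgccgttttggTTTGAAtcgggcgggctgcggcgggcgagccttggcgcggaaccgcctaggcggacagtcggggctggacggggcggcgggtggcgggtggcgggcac
Cdc20: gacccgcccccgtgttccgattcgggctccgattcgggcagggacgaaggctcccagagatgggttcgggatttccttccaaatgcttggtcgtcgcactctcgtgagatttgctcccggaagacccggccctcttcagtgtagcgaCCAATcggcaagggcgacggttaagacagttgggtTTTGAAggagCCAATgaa
Top2a holds 2 CHR and 5 CCAAT matches here, Mki67 2 and 3, and Cdc20 1 and 2.

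Inhibitors and cyclins of the G1 phase had a median of -0.02, with 1 of 19 called higher, and 2 rose. Cdkn1a, the inhibitor p21, had 2646 and 7073 reads in wild type and 3639 and 10281 in knockout, a 2.18-fold wild-type difference (interval 2.08 to 2.28, edgeR adjusted p = 0.0144). Ccnd2, cyclin D2, named after its values were seen, had 1843 and 3802 reads, then 1886 and 5054 (adjusted p = 0.0304).

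Among genes of sprouting vessels, 22 tip cell genes had a median of 0.01, with 3 called lower and 1 higher; 2 fell and 1, Adm, rose. Marcksl1, an actin-binding membrane protein, had 3195 and 1200 reads in wild type and 12327 and 3864 in knockout, and fell (edgeR, adjusted p = 0.012). Sox11, a transcription factor of immature cells, had 2801 and 1375, then 2179 and 1558, and fell (adjusted p = 0.0408). Vascular growth factor receptors stayed within 2-fold. Kdr, the receptor VEGFR2, had 40225 and 64942 reads (log2 0.40), and its decoy Flt1 20645 and 19524 in wild type but 47988 and 28958 in knockout (log2 -0.38 and -1.16).

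Of 17 Wnt and beta-catenin genes 2 were called lower and 0 higher (median 0.01, between -0.15 and 0.13 over the alternative settings). Nkd1, a Wnt target that feeds back on the pathway, had 5395 and 2353 reads in wild type and 13405 and 5408 in knockout, and fell (edgeR, adjusted p = 0.012). Reck, a coreceptor for Wnt7 ligands, had 246 and 114 reads, then 378 and 198, a log2 ratio of -1.27 in both pairs, and did not pass (adjusted p = 0.0882). The abundant targets Apcdd1 (log2 -0.26) and Tnfrsf19 (log2 0.19) lay within 2-fold. In the Notch list 1 of 15 genes was called lower: Hes1, a repressor induced by Notch, had 1341 and 807 reads in wild type and 9076 and 1453 in knockout.

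Cxcl12, a chemokine of arterial endothelium that guides neurons and blood cells, had 6553 and 20447 reads in wild type and 6040 and 17418 in knockout. It was 2.54-fold higher in wild type (interval 2.47 to 2.61) and rose (edgeR, adjusted p = 0.0124). Vwf, the von Willebrand factor, had 6772 and 17990 reads, then 6652 and 16903, and rose (adjusted p = 0.0144). The arterial list had a median of 0.21 with 2 of 14 called higher, and the venous list one of -0.21 with 1 of 9. Epas1, the hypoxia-inducible factor HIF-2alpha that is abundant in endothelium, had 13841 and 33721 reads, then 14734 and 34775, and rose (log2 0.99 and 0.81, adjusted p = 0.0144), and Foxf2, a forkhead factor of brain pericytes and endothelium, fell (3100 and 1931 reads, then 3248 and 2320, adjusted p = 0.0418). Among the other 26 transcription factors of the list none passed.

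Of the basement membrane, 12 of 20 genes lay above 0, with 0 called higher and 1 lower. Col4a1, a chain of type IV collagen, had 51529 and 102701 reads in wild type and 43717 and 91685 in knockout, and rose (log2 0.70 and 0.64, edgeR adjusted p = 0.02). Col15a1, a collagen at the edge of basement membranes, had 180 and 5 reads in wild type but 34 and 48 in knockout. Genes of TGF-beta and BMP signalling had a median of 0.12, with 2 of 24 called higher (background 3.09%) and 2 lower (background 7.59%). Id3, a BMP target, had 9235 and 12362 reads (log2 0.13). Flow-responsive genes had 0 of 13 called and a median of 0.17; Piezo1, a mechanically gated channel, had 526 and 373 reads in wild type and 575 and 285 in knockout.

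Secreted factors through which endothelium acts on neural progenitors had a median of -0.05, with 1 of 19 called higher and 4 lower, and their median lay between -0.11 and 0.07 over the alternative settings. Beside Cxcl12, pleiotrophin, Ptn, rose (1824 and 3518 reads in wild type, 1767 and 4869 in knockout, edgeR adjusted p = 0.0391; named after its values were seen). Igf1 had 180 and 41 reads, then 77 and 41. Imprinted genes of fetal growth lay below 0 in 17 of 21 members (median -0.40, 3 called lower). H19, an imprinted noncoding RNA, had 1629 and 582 reads in wild type but 1056 and 1209 in knockout. Its neighbour Igf2, named after its values were seen, had 4072 and 5354, then 2543 and 8036. The RNA-binding proteins of the Lin28 axis lay below 0 in 10 of 11 members with 0 called, led by Igf2bp1 (2433 and 1517 reads, log2 -0.97).

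Immediate early genes, which answer within minutes to stimuli and to cell handling, had 5 of 32 called higher (background 3.09%) and 2 lower (median 0.30). In the knockout pair 15 of the 32 lay above 0, 2 were called higher and 5 lower, with a median of -0.06. Fos had 44843 reads at E15 and 131387 at E18 in wild type and 37359 and 79624 in knockout (edgeR, adjusted p = 0.0252). Egr1 had 14219 and 56447 reads, then 11968 and 34696, and rose 3.23-fold in wild type (interval 3.18 to 3.29, adjusted p = 0.0144). In all 5 of 32 rose, where 1.05% of all genes did, and 1 fell. The others were Zfp36, Junb and Socs3, which rose, and the phosphatase gene Dusp2, which fell (1057 and 426 reads, then 2790 and 1059). These 4 are named after their values were seen. Of 16 heat shock genes 2 were called lower and 0 higher (median -0.28), and the same 2, Hspa1a and Hspa1b, fell. Hspa1a had 11692 and 3017 reads in wild type and 17882 and 1985 in knockout, and fell (adjusted p = 0.0144), while constitutive chaperones such as Hspa8 (log2 -0.13) and Hsp90ab1 (log2 -0.27) stayed near 0. Hspa1a and Hspa1b are near-identical copies and their split of reads is uncertain. Inflammatory genes had 1 of 15 called higher and 2 lower; Nfkbia, the inhibitor of NF-kappaB, had 12446 and 17658 reads (log2 0.21), and Il1a, interleukin 1 alpha, 104 and 7, then 61 and 6. Glucocorticoid targets had 2 of 14 called higher and 1 lower, with Sgk1, a kinase, at 14705 and 20818 reads (log2 0.21) and Pdk4, which restrains pyruvate oxidation, at 410 and 172.

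Transcripts of the mitochondrial genome lay below 0 in 10 of 10 members in both pairs (medians -0.80 in wild type and -0.58 in knockout). mt-Co1, a subunit of cytochrome oxidase, had 79026 and 55888 reads in wild type and 66423 and 53531 in knockout, and fell (edgeR, adjusted p = 0.0304). Outside that list, the mitochondrial ribosomal RNA mt-Rnr1 had 1749 and 603 reads, then 1301 and 504 (adjusted p = 0.0144). The 56 nuclear genes of the respiratory chain had a median of 0.01, with 2 called higher and 0 lower, and Sdha, of complex II, had a log2 ratio of -0.14. Glycolysis (median 0.05, 0 of 16 called) and fatty acid oxidation (median 0.06, 1 of 15 called higher) stayed near the level of all genes. Among hypoxia and antioxidant genes, Bnip3, a mitophagy receptor (591 and 1899 reads, then 608 and 1797, adjusted p = 0.0224), Adm, adrenomedullin (6589 and 15292, then 8417 and 18616, adjusted p = 0.023), and Gstm1, a glutathione transferase (1067 and 3142, then 1160 and 3227, adjusted p = 0.02), rose.

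Among noncoding classes, the annotation class TEC holds predicted transcripts that await experimental proof. Of its 166 genes 69 were called lower (background 7.59%) and 4 higher, with a median of -0.78 in wild type and -1.60 in knockout. Antisense genes had 21 of 95 called lower and 4 higher (medians -0.31 and -0.79). The 167 lincRNA genes had 11 called higher and 21 lower (medians -0.15 and -0.21), and the 251 processed pseudogenes 5 and 21 (medians -0.26 and -0.17). The 11171 protein-coding genes had 335 called higher and 742 lower, with medians of -0.10 and -0.09. Malat1, a nuclear long noncoding RNA, had 1706 and 718 reads in wild type and 1823 and 232 in knockout, and fell (edgeR, adjusted p = 0.0476; named after its values were seen). Kcnq1ot1, the antisense RNA of an imprinted cluster, had 1244 and 403, then 1049 and 66. The sources used here do not say whether the counts used strand, so an antisense gene and the gene it overlaps may share reads.

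The knockout pair shares no library with the wild-type pair, and its ratios were set beside the wild-type calls. Over 11593 genes that passed the filter in both pairs, 463 were higher in knockout (3.99%) and 1238 lower (10.7%). Of 343 genes higher in wild type, 115 had the same call in knockout (33.5%, which is 24.8% of the knockout's higher genes), 79.9% had the same sign, and 13 had the opposite call. Of 794 genes lower in wild type, 366 had the same call (46.1%, or 29.6% of the knockout's lower genes), 81.9% had the same sign, and 33 had the opposite call. Over all these genes, 41.9% had a knockout ratio above 0 and 58.1% one below. Across genes, which are not independent replicates, the ratios had a Pearson r of 0.46 and a Spearman rho of 0.434, and an r of 0.541 over the 9033 genes with at least 10 CPM in a library.

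Genes with the opposite call include Ttr, transthyretin, which carries thyroid hormone and is abundant in choroid plexus, and Adamts14, a procollagen protease. Ttr had 202 reads at E15 and 0 at E18 in wild type, at least 82.6-fold lower, but 5 and 180 in knockout. Adamts14 had 0 and 90 reads in wild type, at least 24.4-fold higher, and 89 and 34 in knockout. Each extreme library is of a different stage and genotype. That the pairs differ for these genes was not tested, since each group holds 1 library.

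**Figure D4:**
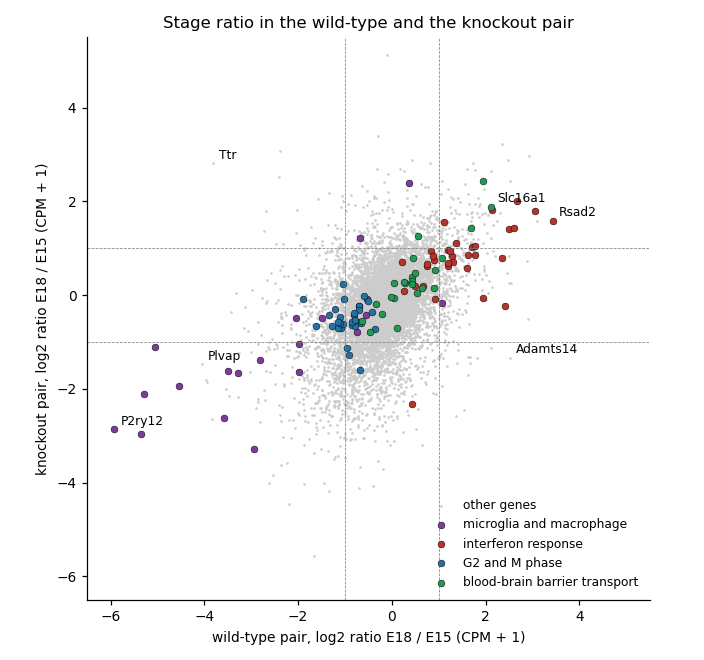
Log2 ratio of E18 over E15 in the wild-type pair (horizontal) and the knockout pair (vertical) for 12088 genes, with members of 4 gene lists in colour and dashed lines at 2-fold. Most interferon genes lie at the upper right (4 of 33 lie below 0 in the knockout pair), most microglial genes at the lower left, and genes of the G2 and M phases farther below 0 in wild type (median -0.86) than in knockout (median -0.58).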

How the data were processed

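RNA was sequenced from brain endothelial cells in 4 libraries, 1 per group. The authors deposited, per the file headers, raw read counts per Ensembl gene and a CPM column for each library, in 1 table per stage; their CPM gives a count of 0 the value of 0.5 read and was not used further. Per the submitters' processing notes, Bowtie2 2.2.3, TopHat2 2.0.12, HTSeq 0.6.0 and the build mm9 were used; their roles are not given. Of 20143 gene identifiers found in GENCODE M21 (GRCm38), 90.1% have the same start and end there as in the files, and coordinates were therefore taken to be GRCm38.

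Counts were divided by the library total (15542930 to 21992660 reads). Genes in both tables, off X and Y, with at least 1 CPM in a wild-type library and at least 50 reads over both were kept. Ratios used a pseudocount of 1 CPM. Fold differences and their 95% intervals (exact, Clopper-Pearson) come from scaled counts with no pseudocount added, and cover counting error only. A library at 0 reads gave a bound against 3 reads. The additive test used edgeR 4.0.16 (glmQLFit, glmQLFTest, TMM, stage and genotype as terms, Benjamini-Hochberg) on 12963 genes with at least 1 CPM in 2 libraries, with 1 residual and 6.29 prior degrees of freedom. It was tested on simulated data, as were the ratios. Alternatives were DESeq2 1.42.0, TMM and DESeq2 scaling, other filters, pseudocounts and centring by transcript length.

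The 50 gene lists and the members were chosen with earlier results of these data known. Named genes are the 15 highest and 15 lowest ratios without clone names, the 6 highest and lowest of at least 100 CPM, 4 per list (2 most abundant, 2 largest ratios) and Ucp2; others are said to be named after their values were seen, or are C1qc. List members outside the filter were not counted. Promoter windows came from RefSeq (GRCm38.p6); 8922 of 12087 member symbols had one.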

Additional observations from a re-analysis of the deposited data

Results flagged for a closer look

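The wild-type and knockout pairs went opposite ways past 2-fold for 46 genes. Of 343 genes higher in wild type 13 were lower in knockout, and of 794 lower in wild type 33 were higher in knockout. Among the named genes these were Adamts14, with log2 ratios of 2.52 in wild type and -1.34 in knockout, and Ttr, with -3.81 and 2.81. Over all 11593 genes that passed in both pairs, 10.7% were lower and 3.99% higher in knockout. The count of 46 was 1 with a pseudocount of 5 CPM, 21 with a filter at 5 CPM and 87 without a filter. The difference between the pairs was not tested, as each rests on 1 library per group.

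Transcripts of the sex chromosomes, which stand outside the comparison, differed between the wild-type libraries. Xist had 2549 reads at E15 and 0 at E18, and Ddx3y had 5826 reads at E18, with 0 in the knockout library of that stage. Stage and these transcripts cannot be told apart in the wild-type pair.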

How the results depend on the processing

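With a pseudocount of 5 CPM the calls fell to 138 higher and 281 lower in wild type, with 55 and 100 of them called alike in both pairs, since weakly expressed genes no longer reach 2-fold. Under the other 8 alternatives each of these counts stayed within 1.5 times the reported one, and the share of lower calls ranged from 60.3% with TMM to 71.6% without a filter. Requiring that the counting interval exclude equality changed no call (374 and 918). This alternative could not change one: with at least 50 reads and a pseudocount of 1 CPM, a gene past 2-fold already excludes equality. It also leaves every ratio and list median as reported.

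The additive test depended on its settings: DESeq2's Wald test gave 349 genes up and 354 down, scaling to library totals 58 and 55, no filter 57 and 33, and a filter at 5 CPM in 2 libraries 463 and 555. At an unadjusted p under 0.05 in edgeR's test, 1039 genes were higher and 1131 lower, which does not make them risen or fallen. Leaving out any library leaves 0 residual degrees of freedom, so that fit was not run. No paired analysis was possible because the groups hold 1 library each.

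Of 44 lists with at least 5 members, 38 kept the sign of their median under all 9 alternatives; those of G1 and cell cycle exit, Wnt and beta-catenin, antioxidant, endothelial factors for neural progenitors, mitochondrial ribosomal proteins and the nuclear respiratory chain did not. Of 101 named genes called at 2-fold, 77 were past it under every alternative. None of these 101 changed direction; named genes near 0 can change sign with the shift of all genes under TMM. Counting error leaves the size of many calls uncertain: all 1292 calls had counting intervals that exclude equality, as did 8146 members in all, and 883 members had intervals wholly past 2-fold.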

Other observations

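Fibroblast and mural genes differed between the pairs in the side of 0 on which their medians lay or in size: fibroblast genes stood at -0.38 in wild type and 0.35 in knockout, and mural genes at 0.23 and 0.92. Cytosolic ribosomal protein genes lay below 0 in 49 of 73 members in wild type and 68 of 73 in knockout (medians -0.16 and -0.42). Most genes lay below 0 as well: 39.1% of all members were above 0 in wild type. Of the genes passing in both pairs, 41.9% were above 0 in knockout. In the ribosomal list Rps2 had 9242 and 3664 reads in wild type and 9330 and 7510 in knockout. Igfbp2, a binding protein for insulin-like growth factors, stands outside the lists and was chosen after its values were seen. Igfbp2 had 1504 and 263 reads in wild type and 1562 and 500 in knockout and fell (edgeR, adjusted p = 0.0144). Among the 15 highest ratios, the stearoyl-CoA desaturase gene Scd1 had 7 and 140 reads, then 14 and 199, and rose (adjusted p = 0.0483). Ptgs2, the inducible cyclooxygenase, is also among these 15 and is the inflammatory gene called higher. Ptgs2 had 49 and 442 reads in wild type and 148 and 241 in knockout.

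By transcript length, the 1208 genes with the longest transcripts had a median log2 ratio of -0.19 in wild type and -0.27 in knockout, and the 1208 with the shortest had -0.09 and -0.17. Of the genes with the lowest p in the additive test that stand in no list, Serpine2, a protease inhibitor, rose (4364 and 12602 reads in wild type, 4340 and 15744 in knockout), and Raly, an RNA-binding protein (1435 and 460, then 2436 and 692), and Ccnl2, a cyclin tied to splicing (3817 and 1550, then 5426 and 1898), fell (edgeR, adjusted p = 0.012 each).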
